A study of Mus musculus with 8 samples.

Results

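The genes described here are 37 X-linked genes with a role in neurons or in X-linked intellectual disability, chosen by name, of 34328 annotated protein-coding and long noncoding genes on chromosomes 1 to 19 and X. For each gene the percent covered by H3K27me3 peaks was measured in 2 places: within 2.5 kb of both annotated gene ends, and over the whole gene body from one end to the other. H3K27me3, a histone mark of silenced chromatin, was mapped by ChIP-seq, which sequences the DNA bound to the mark, in neural stem cell lines of female mice (C57BL/6, 129 and Castaneus mix). The comparison was of Smchd1 del/del cells (2 libraries) with Smchd1 del/fl cells (2 libraries), and each library had its own whole-cell extract as the control of peak calling. The lines came from E14.5 embryos that carried a deleted and a floxed allele of Smchd1, so the del/fl controls also lacked 1 copy. All cells, of both genotypes, had a maternal X of 129 origin with the deltaA allele of Xist and a paternal X of Castaneus origin. The del/del cells were made by transduction with a retrovirus that carries Cre and a puromycin resistance gene. Puromycin was given from 24 hours after transduction and cells were taken at 7 days, while the del/fl cells were the untransduced part of the lines. Deletion of Smchd1 and transduction with selection therefore cannot be told apart.

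In female mammals 1 of the 2 X chromosomes is silenced. The RNA of Xist coats that chromosome, and Polycomb repressive complex 2 then spreads H3K27me3 over its genes. Smchd1 is a chromatin protein that accumulates on the inactive X and is needed to keep part of its genes silent. The X carries an unusually large share of the genes whose loss causes intellectual disability in males, who have no second copy. They include genes of synapses (Nlgn3, Gria3, Syn1, Syp), of neuronal migration and axons (Dcx, L1cam), of chromatin (Atrx, Phf6, Phf8) and of ubiquitin tagging (Huwe1, Cul4b).

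The authors' peak caller used 11793402 to 14064030 tags per H3K27me3 library and listed 32971 to 45566 peaks. Peaks covered 48.4% and 53.5% of the X in del/del, compared with 31.5% and 35.7% in del/fl, and between 1.34% and 1.93% of the autosomes in the 4 libraries. Within each genotype library 2 had the larger cover. The control libraries behind the peaks differed in depth: 20770551 and 31629404 tags in del/del, compared with 19579060 and 15525700 in del/fl. Their part in the results was not tested. The lists join the reads of both X chromosomes, so a value is for the active and the inactive X together. Neural stem cell genes, which such cells express, should lack the mark: 13 of 14 fixed marker genes (Sox2, Nes and Vim among them) had no peak at their ends in any library, and Pax6 had one. Of 12 neuronal markers 9 had a peak, and of 16 markers of blood, vessel, glial, muscle, liver and pluripotent cells 5 had one. Averaged over each marker list, the cover in the libraries of the 2 genotypes overlapped for neural stem cell genes (0.643% and 1.19% in del/del, 0.621% and 1.58% in del/fl), for neuronal genes (34.0% and 38.7%, 37.2% and 38.3%) and for the other cells (4.4% and 5.32%, 5.07% and 6.91%). Smchd1 and Xist had no peak in any library, so these lists do not check the deletion.

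Most member promoters lay inside peaks in both genotypes, and the sequences of 6 show how they differed. RefSeq promoter windows (GRCm38.p6, the build of mm10), which run from 250 bases before to 50 bases after the start of transcription, were matched to 30 of the 37 genes. Of these, 21 were fully inside peaks in all 4 libraries, among them Fmr1, Med12, L1cam, Dcx, Huwe1 and Pcdh19. This is 70% of the 30, beside 42.4% of 787 other X-linked protein-coding genes. The windows of Syn1, Atrx and Cul4b were fully inside peaks in both del/del libraries and less covered in both del/fl libraries. No other member window was more covered in both del/del than in both del/fl libraries. These 3 are 10% of the 30. Such higher cover, whether or not it was full in del/del, was found at 11.4% of 787 other X-linked protein-coding genes. The share was thus near that of the X at large. The reverse was seen at 0 members and at 0.508% of the other genes. Without del/fl library 2 the count was 5. The windows of Syp and Ftsj1 held no peak in any library, as did 21.3% of the other X-linked promoters. The other 4, of Upf3b, Nexmif, Dlg3 and Brwd3, were covered in part or in single libraries. The 250 bases before the start are printed here for the 3 promoters that were less covered in del/fl (Syn1, Atrx, Cul4b), the 2 that held no peak (Syp, Ftsj1) and 1 that was covered in all libraries (Med12). In all 6 the start of transcription in the table is the annotated end of the gene. Capitals mark CpG dinucleotides, the targets of DNA methylation, which are dense in many Polycomb-bound promoters.
Syn1, chrX:20920919-20921168, minus strand: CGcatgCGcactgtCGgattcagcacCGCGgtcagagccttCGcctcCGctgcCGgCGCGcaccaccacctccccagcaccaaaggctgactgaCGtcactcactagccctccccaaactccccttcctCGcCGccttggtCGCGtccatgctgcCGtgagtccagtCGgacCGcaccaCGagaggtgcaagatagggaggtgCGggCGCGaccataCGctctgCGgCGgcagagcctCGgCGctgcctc
Atrx, chrX:105929373-105929622, minus strand: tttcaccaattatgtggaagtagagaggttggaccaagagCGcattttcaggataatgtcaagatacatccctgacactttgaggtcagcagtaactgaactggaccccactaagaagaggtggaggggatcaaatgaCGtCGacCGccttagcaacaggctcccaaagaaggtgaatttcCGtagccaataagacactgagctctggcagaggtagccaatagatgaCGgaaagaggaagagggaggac
Cul4b, chrX:38576197-38576446, minus strand: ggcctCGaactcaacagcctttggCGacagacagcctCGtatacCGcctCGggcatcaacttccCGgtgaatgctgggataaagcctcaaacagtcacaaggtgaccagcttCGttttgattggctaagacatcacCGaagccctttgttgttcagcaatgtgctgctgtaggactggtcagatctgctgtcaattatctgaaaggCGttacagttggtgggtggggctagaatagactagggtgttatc
Syp, chrX:7638330-7638579, plus strand: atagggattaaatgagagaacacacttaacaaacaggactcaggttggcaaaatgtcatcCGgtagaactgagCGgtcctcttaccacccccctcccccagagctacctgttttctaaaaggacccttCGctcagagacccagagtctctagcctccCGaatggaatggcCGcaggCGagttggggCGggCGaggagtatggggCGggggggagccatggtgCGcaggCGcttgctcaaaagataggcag
Ftsj1, chrX:8252407-8252656, minus strand: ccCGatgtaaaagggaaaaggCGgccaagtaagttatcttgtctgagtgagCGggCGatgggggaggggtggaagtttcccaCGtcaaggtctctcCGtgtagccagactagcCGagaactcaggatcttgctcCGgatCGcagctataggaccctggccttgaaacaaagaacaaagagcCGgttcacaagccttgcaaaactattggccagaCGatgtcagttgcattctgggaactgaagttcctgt
Med12, chrX:101273841-101274090, plus strand: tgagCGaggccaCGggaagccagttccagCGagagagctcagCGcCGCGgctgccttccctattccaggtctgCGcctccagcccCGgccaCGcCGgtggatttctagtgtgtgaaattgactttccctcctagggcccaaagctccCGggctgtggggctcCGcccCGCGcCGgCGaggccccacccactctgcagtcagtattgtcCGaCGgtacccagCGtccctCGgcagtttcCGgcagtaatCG
These 6 stretches hold 27, 6, 9, 11, 11 and 22 CpG dinucleotides, in the order printed. The Syn1 stretch was 0% covered in both del/fl libraries and 100% in both del/del libraries. For Atrx the del/fl values were 0% and 62.8%, and for Cul4b 0% and 93.6%, again against 100% in both del/del libraries, so 1 of the del/fl libraries came close to the del/del state at Cul4b. Among these 6 the CpG number did not part the bare from the covered promoters: Syp and Ftsj1, with 11 each, lie between Cul4b and Med12. Over the whole promoter windows the members were richer in CpG than other X-linked genes, with a median of 20.5 CpG (range 3 in Dcx to 44 in Ptchd1) against 8, and 14 over all protein-coding genes. A ratio of observed to expected CpG over 0.6 was found in 73.3% of the member promoters, in 30.5% of those of other X-linked genes and in 48.9% of all. Across the 30 genes that ratio and the cover of the 5′ end in del/fl had a Spearman rho of 0.27, a description over genes that share the same libraries. A promoter window is little longer than the sequenced fragments (186 to 193 bp by the authors' caller), so its cover is close to a yes or no.

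Both gene windows were more covered in del/del, the bodies most evenly. Over the 37 gene bodies the mean cover was 82.8% and 88.1% in del/del, compared with 58.0% and 66.4% in del/fl, a difference of 23.3 points between the genotype means of 85.5% ± 3.73 and 62.2% ± 5.97 (SD, n = 2). At the gene ends it was 86.6% and 90.4% against 66.6% and 73.1%, a difference of 18.7 points. In both windows the lower del/del library lay above the higher del/fl library. In such mixed cell lines, fewer cells with the mark and less mark per cell cannot be told apart. The other 929 X-linked protein-coding genes differed by 17.1 points in bodies and 16.5 at ends, from lower levels in both genotypes (46.6% and 53.5% in del/fl bodies). The members had more mean cover in both genotypes and a larger mean difference, neither of which was tested. Among genes with a peak the mean differences were 23.9 points for members and 20.8 for other X-linked genes in bodies, and 19.2 and 19.3 at ends. The median member differed by 21.9 points in bodies and 13.5 at ends. Medians over the other 929 X-linked protein-coding genes, which include genes without a peak, were 13.1 and 12.5 points. Among genes with a peak the medians were 21.9 and 14.3 points for members, 17.5 and 16.0 for other X-linked protein-coding genes and -0.03 and -0.22 for all genes, so at ends the members' median was below that of the X.

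Gene by gene, cover in each del/del library was above that in each del/fl library in 34 of 37 bodies and at 23 of 37 gene ends, and the reverse was seen at 0 members. Of all genes tested, 13.5% had such a separation upward in bodies and 13.2% at ends, and of other X-linked protein-coding genes tested, 69.7% and 66.7%. The reverse held for 13.1% of all bodies and 13.8% of all ends, and for 0.131% and 0.503% among the other X-linked genes. The share of members was therefore above that of other X-linked genes in bodies and near it at ends. The 3 bodies without separation were those of Iqsec2 and Dcx, which were nearly full in all libraries, and Ftsj1, which had no peak. With 2 libraries against 2 an exact permutation test cannot give a p below 0.33, so single genes were tested with limma over all genes. 36 of 37 members had a peak and entered the test. At an adjusted p of 0.05 limma called 0 of them in either window, as it called 0% of all 9132 genes at ends and of all 9332 bodies. At an unadjusted p under 0.05, 21 member bodies and 11 member ends were higher and 0 were lower. The share of all genes with that p and direction was 6.45% in bodies and 5.66% at ends. Of other X-linked protein-coding genes it was 43.9% and 35.6%. Lower cover with such a p was found for 3.26% of all bodies and 4.18% of all ends, and for 0% and 0.126% among the other X-linked genes. The smallest adjusted p of any member was 0.132, for the Syp body (limma, Benjamini-Hochberg). Whether the count of 0 depended on single libraries cannot be told from fits with a library left out. A genotype then has a single library, which is assumed to vary like the other pair. Many ends were full in both del/del libraries, so that pair had no spread there because cover is capped at 100%. Calls of such fits are therefore not given. The labels do not tie the libraries to separate embryos or cultures. A p here reflects the spread between these samples alone, which may be technical. When peaks less than 3 kb apart were merged, the separated bodies fell to 20 and the separated ends to 8. With only peaks of a −log10 q of at least 5 they fell to 4 and 2. Separation of other genes was not counted with merged peaks or at that threshold, so these counts have no share of the X beside them.

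**Figure D1:**
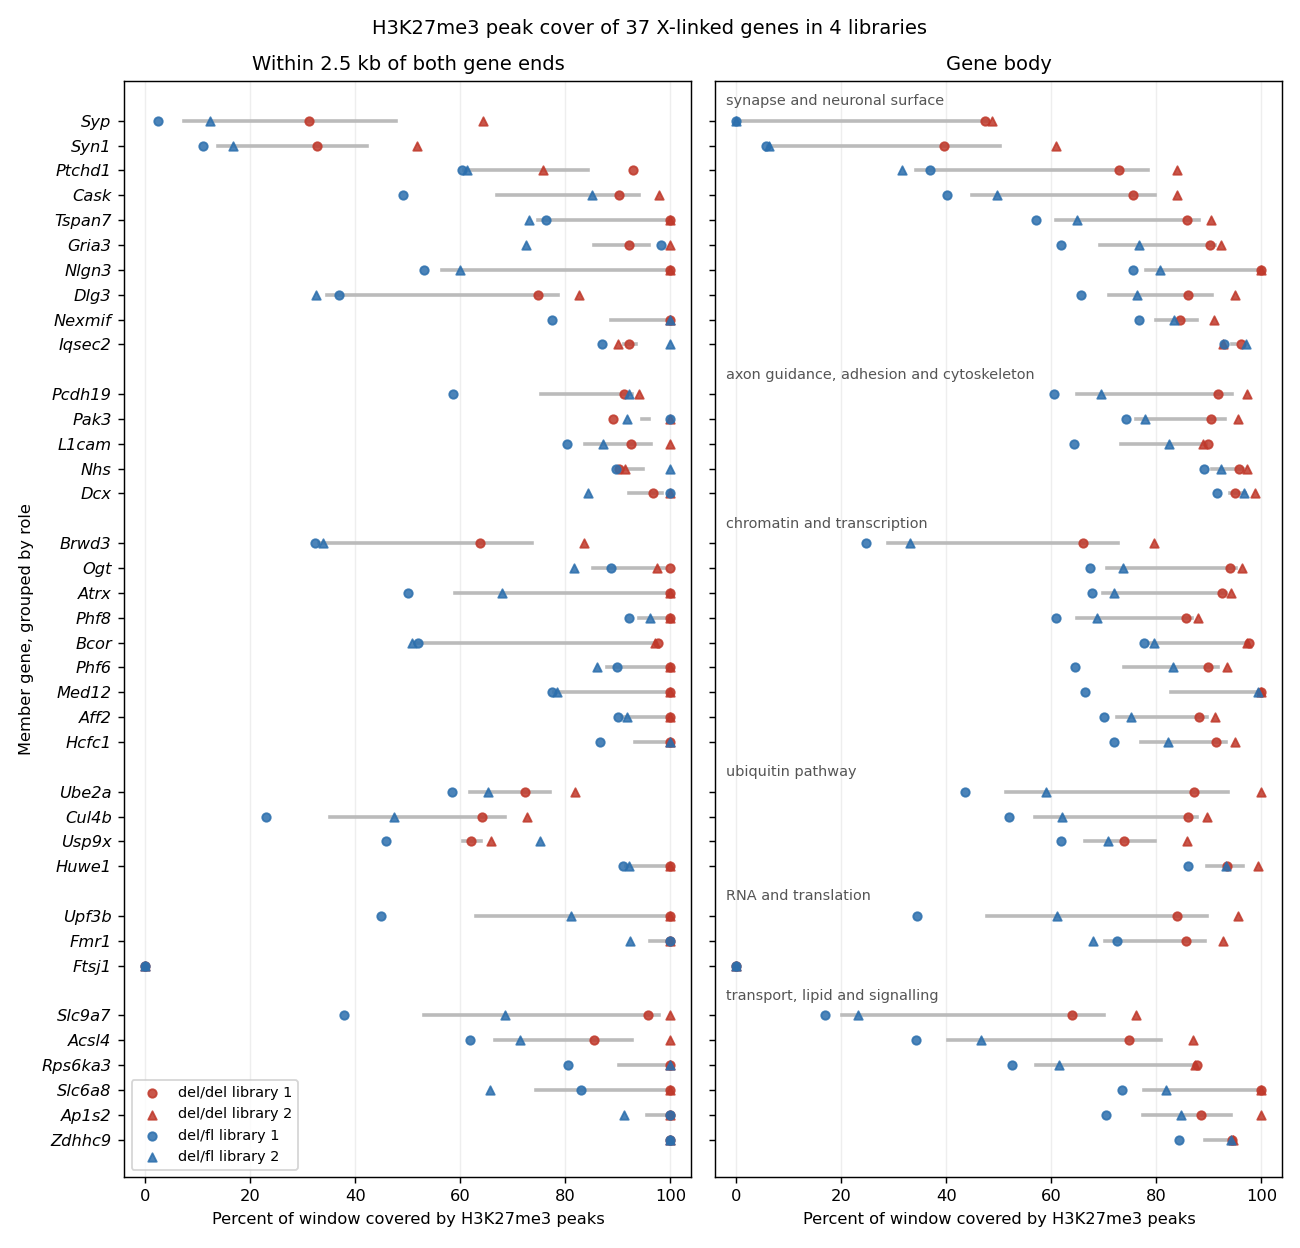
Percent of each member covered by H3K27me3 peaks, within 2.5 kb of both gene ends (left) and over the gene body (right). Red marks are the 2 del/del libraries, blue marks the 2 del/fl libraries, grey bars join the genotype means, and genes are grouped by role. In the right panel red lies clear of blue in all bodies but Iqsec2, Dcx and Ftsj1. In the left panel many genes are at or near 100% in both genotypes.

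Genes of the synapse and the neuronal surface held some of the lowest levels in del/fl and some of the largest differences. The 10 genes had a mean body cover of 77.8% and 83.9% in del/del, compared with 51.2% and 56.6% in del/fl, and 9 of the 10 bodies separated. Among other X-linked protein-coding genes tested, 69.7% of bodies and 66.7% of ends separated. Role groups are small, so no count of separated genes, here or below, is read as particular to a group. Syp encodes synaptophysin, a membrane protein of synaptic vesicles, at chrX:7638580-7653256 (mm10). Its body was 47.3% and 48.7% covered in del/del against 0% in both del/fl libraries, with the nearest del/fl peaks 1093 and 1268 bp away. The genotypes were far apart and the del/del libraries nearly equal (difference 48.0 points, SE 1.19, limma adjusted p = 0.132). At its ends the del/del libraries differed much more, 31.2% and 64.4%, against 2.39% and 12.3% in del/fl. Syn1 encodes synapsin I, which tethers synaptic vesicles, at chrX:20860511-20920918. Its body was 39.5% and 60.8% covered in del/del, compared with 5.74% and 6.21% in del/fl, and its difference of 44.2 points (SE 9.46) did not pass the test (limma adjusted p = 0.393). Its ends together were 32.6% and 51.8% against 10.97% and 16.6%. Of the ends, the 5′ end of Syn1 held the larger difference, with cover of 65.2% and 88.4% against 21.9% and 28.4%. Its 3′ end was nearly bare in all libraries, with 0% and 15.2% in del/del, compared with 0% and 4.80% in del/fl.

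Nlgn3 encodes neuroligin 3, an adhesion protein of the postsynaptic side. It was fully covered in both windows in both del/del libraries, while its ends were 53.0% and 59.9% and its body 75.6% and 80.6% covered in del/fl. Dlg3, the gene of the scaffold SAP102 that anchors glutamate receptors, was 74.8% and 82.6% covered near its ends in del/del, compared with 36.8% and 32.5% in del/fl. Its difference of 44.0 points was the third largest at gene ends (SE 4.002, limma adjusted p = 0.261). Gria3, a subunit of AMPA-type glutamate receptors, separated in the body (90.2% and 92.3% against 61.8% and 76.6%) but not at its ends, where a del/fl library reached 98.3%. Cask, a scaffold kinase of synapses, had a body cover of 75.5% and 83.9% against 40.1% and 49.7%. Ptchd1, a membrane protein with homology to the hedgehog receptor Patched, was full at its 5′ end in all 4 libraries. Its 3′ end was 85.8% and 51.3% covered in del/del, compared with 20.5% and 22.4% in del/fl, and its body 72.8% and 84.0% against 36.9% and 31.6%. Tspan7, a tetraspanin of the cell surface, was likewise almost full at its 5′ end in del/fl (96.5% and 100%) and 56.2% and 46.2% covered at its 3′ end, both of which were 100% in del/del. Nexmif separated in the body by a margin of little over 1 point, with 84.5% and 91.0% against 76.6% and 83.3%. Iqsec2, an exchange factor for Arf GTPases at synapses, was the exception: its body was 96.1% and 92.6% covered in del/del, compared with 92.9% and 97.0% in del/fl, and neither window separated. At its ends, with 92.2% and 90.1% against 86.9% and 100%, the values of del/fl enclosed those of del/del.

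**Figure D2:**
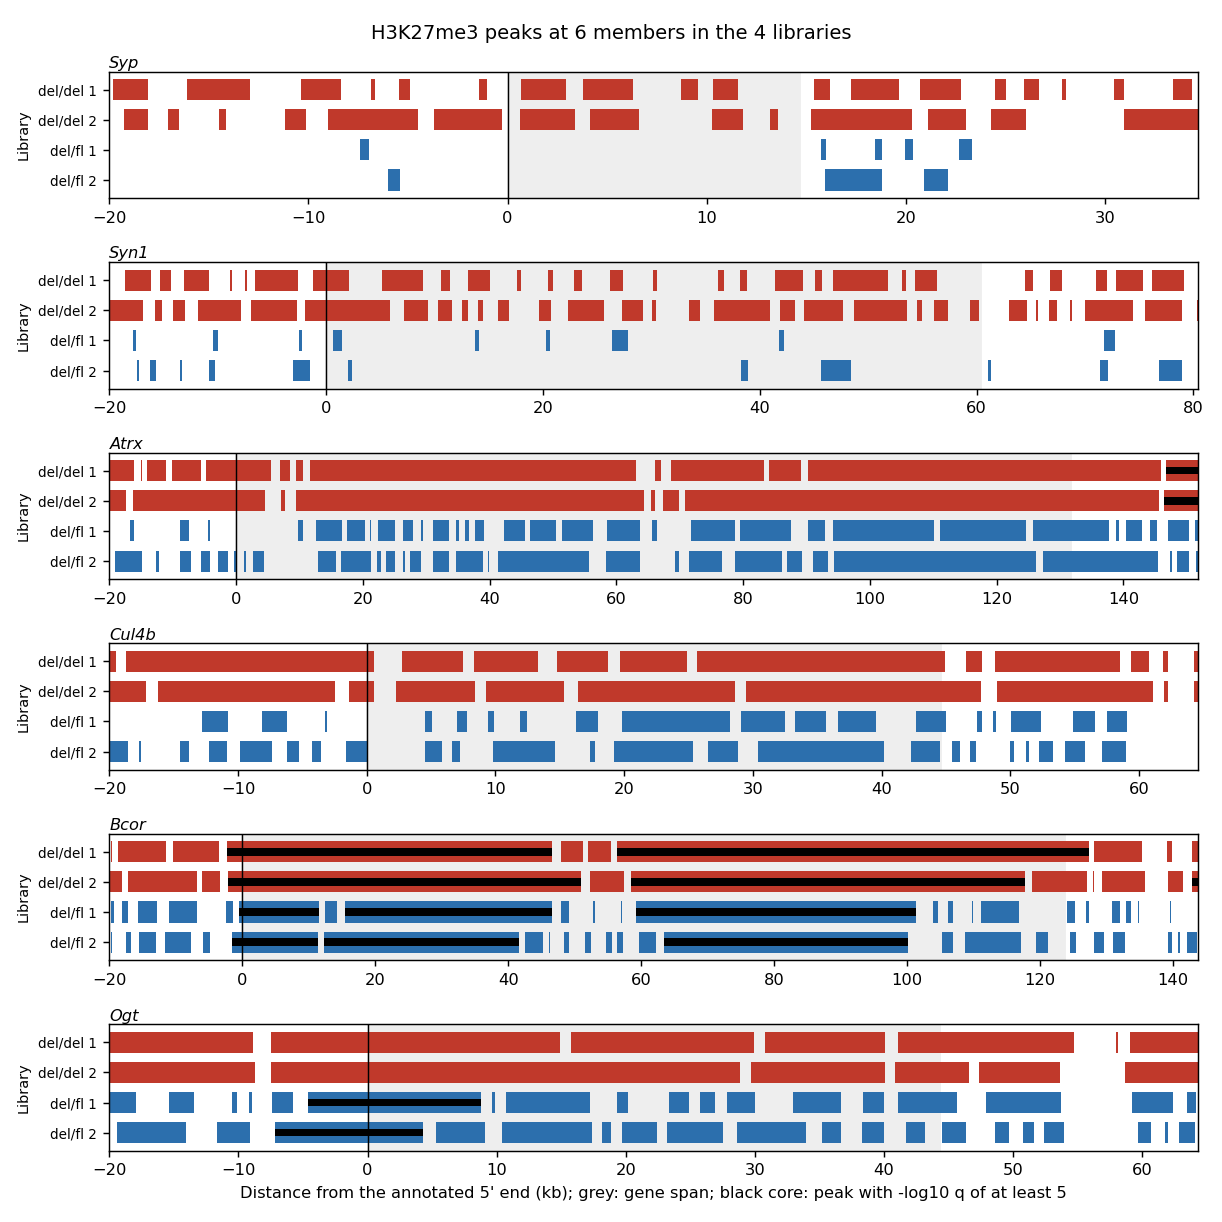
Peaks at Syp, Syn1, Atrx, Cul4b, Bcor and Ogt, plotted against the distance from the annotated 5′ end in kb, with 20 kb on each side. Each row is a library (red del/del, blue del/fl), grey marks the gene span, and a black core marks a peak with a −log10 q of at least 5. Syp and Syn1 hold few or no del/fl peaks in the gene, Atrx and Cul4b hold many short del/fl peaks and long del/del peaks, and Bcor holds black cores in all 4 rows.

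Genes of neuronal migration, adhesion and the cytoskeleton were the most covered group in del/fl and differed least at their ends. The 5 genes had 75.9% and 83.7% body cover in del/fl and 92.5% and 95.6% in del/del, and 4 of 5 bodies but only 1 of 5 ends separated. Dcx encodes doublecortin, a microtubule protein of migrating neurons. Its body was 94.9% and 98.9% covered in del/del, compared with 91.5% and 96.7% in del/fl, and its 3′ end was full in all libraries. The genotypes overlapped at Dcx in both windows. L1cam encodes an adhesion molecule of growing axons. Its body was 89.8% and 88.9% covered in del/del, compared with 64.2% and 82.3% in del/fl, and its ends separated too (92.4% and 100% against 80.4% and 87.1%). Within 1 kb of the ends, however, L1cam had the opposite sign. Pcdh19, a protocadherin whose loss causes epilepsy with intellectual disability, had a body cover of 91.7% and 97.3% against 60.4% and 69.4%. Pak3, a kinase that acts on the actin cytoskeleton, separated in the body (90.5% and 95.6% against 74.2% and 77.9%), whereas at its ends the genotypes overlapped (89.0% and 100% against 100% and 91.8%). Nhs, which shapes the actin cytoskeleton, had the lowest difference of all members at its ends, -4.08 points, with 90.1% and 91.3% in del/del, compared with 89.6% and 100% in del/fl. Its body was 95.7% and 97.2% against 89.0% and 92.2%. Neither the Pak3 nor the Nhs end difference was larger than the spread between libraries, and both changed sign in windows of 5 kb. The Pak3 sign also turned without the first library of either genotype, and the Nhs sign without del/fl library 2.

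Genes of chromatin and transcription separated in all 9 bodies and at 8 of 9 ends, beside 69.7% and 66.7% of other X-linked genes tested. Their mean body cover was 89.4% and 92.8% in del/del, compared with 63.5% and 74.1% in del/fl. Bcor, a corepressor that belongs to a variant Polycomb complex, at chrX:12036737-12160516, had the largest difference of all members at gene ends. Its ends were 97.6% and 97.0% covered in del/del, compared with 51.9% and 50.9% in del/fl, a difference of 45.9 points with little spread in either genotype (SE 1.07, limma adjusted p = 0.133). Most of it lay at the 3′ end, which was full in del/del against 23.7% and 19.2% covered in del/fl, while the 5′ end was 95.2% and 93.9% against 80.1% and 82.6%. Bcor was also the most strongly marked member, and peaks of a −log10 q of at least 5 covered 92.2% and 87.4% of the gene and its flanks in del/del, compared with 66.3% and 61.5% in del/fl. Atrx encodes a chromatin remodeler of heterochromatin, at chrX:105797615-105929372. Its 3′ end was full in all libraries, and its 5′ end was full in del/del but 0% and 35.8% covered in del/fl. Both ends together were full in del/del, compared with 50% and 67.9% in del/fl. The difference of 82.1 points was the largest at the 5′ end of any member with a known strand. Over the body, Atrx had 92.5% and 94.2% against 67.7% and 72.0% (difference 23.5 points, SE 2.21, limma adjusted p = 0.219).

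Brwd3, a bromodomain protein, was among the least covered members, with a body cover of 66.0% and 79.5% in del/del, compared with 24.6% and 33.1% in del/fl. Its ends were 63.7% and 83.5% against 32.3% and 33.8%. Med12, a subunit of the Mediator complex, and Nlgn3 lie 244 bp apart, so their end windows share sequence and the genes are not independent. The Med12 body was full in del/del against 66.3% and 99.3% covered in del/fl, so the del/fl libraries differed more from each other than 1 of them did from del/del. The histone demethylase gene Phf8 (85.6% and 87.9% against 61.0% and 68.7%) and the chromatin reader gene Phf6 (89.8% and 93.5% against 64.4% and 83.1%) separated in the body, and both were full at their ends in del/del. Hcfc1, a cofactor of cell cycle transcription, had 91.4% and 95.0% body cover against 72.0% and 82.2%, and Aff2, a gene of fragile X E syndrome, 88.1% and 91.2% against 70.0% and 75.1%. Ogt, the enzyme that attaches N-acetylglucosamine to nuclear proteins, had 94.0% and 96.4% body cover in del/del, compared with 67.4% and 73.7% in del/fl. With strict peaks the order at Ogt turned, with 0% of the gene and its flanks covered in del/del, compared with 22.9% and 13.7% in del/fl. The peak over its 5′ end was 22342 and 36321 bp long in del/del, with a −log10 q of 4.89 and 3.82, and 13408 and 11467 bp long in del/fl, with 5.01 and 5.48. These scores are the authors' means over each peak. Why the order turned was not tested.

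The 4 genes of the ubiquitin pathway all separated in the body, with a mean of 85.1% and 93.7% in del/del, compared with 60.8% and 71.3% in del/fl. Separation in the body was seen at 69.7% of other X-linked protein-coding genes tested. Cul4b, the scaffold of a cullin ubiquitin ligase, had 85.9% and 89.7% body cover against 52.0% and 62.0%. Its ends were 64.2% and 72.7% against 23.0% and 47.4%. At the 5′ end alone cover was 60.6% and 45.5% against 0% and 31.9%. Ube2a, a ubiquitin-conjugating enzyme, was full at its 5′ end in all libraries and had a body cover of 87.2% and 100% against 43.5% and 59.0%. Huwe1, a very large ubiquitin ligase, was full at its ends in del/del against 90.9% and 92.1% covered in del/fl, and its body separated by a fraction of a point (93.4% and 99.4% against 86.1% and 93.2%). Usp9x, a deubiquitinase that escapes X inactivation in humans, had 73.7% and 85.7% body cover against 61.7% and 70.9%. At its ends the del/fl libraries, with 45.7% and 75.1%, enclosed the del/del values of 61.9% and 65.8%, and without del/fl replicate 1 the difference of 3.45 points turned to -11.2.

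Of the 3 genes of RNA processing and translation, 2 separated in the body and 1 had no peak at all. Fmr1 encodes FMRP, the RNA-binding protein lost in fragile X syndrome, at chrX:68678536-68717963. Its body was 85.7% and 92.7% covered in del/del, compared with 72.5% and 67.9% in del/fl, a difference of 18.99 points (SE 3.78, limma adjusted p = 0.364). Its ends were full in 3 libraries and 92.2% covered in the other, so the genotypes overlapped there. Upf3b, a factor of nonsense-mediated mRNA decay, had full ends in del/del against 44.9% and 81.1%, and a body cover of 83.8% and 95.6% against 34.4% and 61.1%. Ftsj1, a tRNA methyltransferase at chrX:8238668-8252406, had no peak within the gene or near its ends in any library. The nearest peaks lay 184222 and 16530 bp away in del/del against 19712 and 19882 bp away in del/fl.

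The 6 genes of transport, lipid metabolism and signalling all separated in the body, with a mean of 84.9% and 90.8% in del/del, compared with 55.3% and 65.3% in del/fl. As given above, 69.7% of other X-linked bodies tested separated too. Slc9a7, a proton exchanger of the Golgi, at chrX:20098851-20292035, had the largest body difference of all members. Its body was 64.0% and 76.1% covered in del/del, compared with 16.9% and 23.2% in del/fl, a difference of 49.97 points (SE 6.12, limma adjusted p = 0.264). The ends of Slc9a7 were 95.7% and 100% against 37.9% and 68.4%, the second largest difference there, with a wide gap between the del/fl libraries. Acsl4, which activates arachidonic acid, had a body cover of 74.7% and 86.9% against 34.2% and 46.5%. The creatine transporter gene Slc6a8 was full in both windows in both del/del libraries and 73.5% and 81.7% covered in the body in del/fl. Rps6ka3, the kinase RSK2 of Coffin-Lowry syndrome, had 87.8% and 87.4% body cover against 52.6% and 61.4%. Ap1s2, a subunit of a clathrin adaptor, had 88.5% and 100% against 70.4% and 84.6%. Zdhhc9, a palmitoyltransferase, was full at its ends in all 4 libraries, and in the body the del/del values of 94.4% and 94.7% lay just above the del/fl values of 84.3% and 94.3%.

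**Figure D3:**
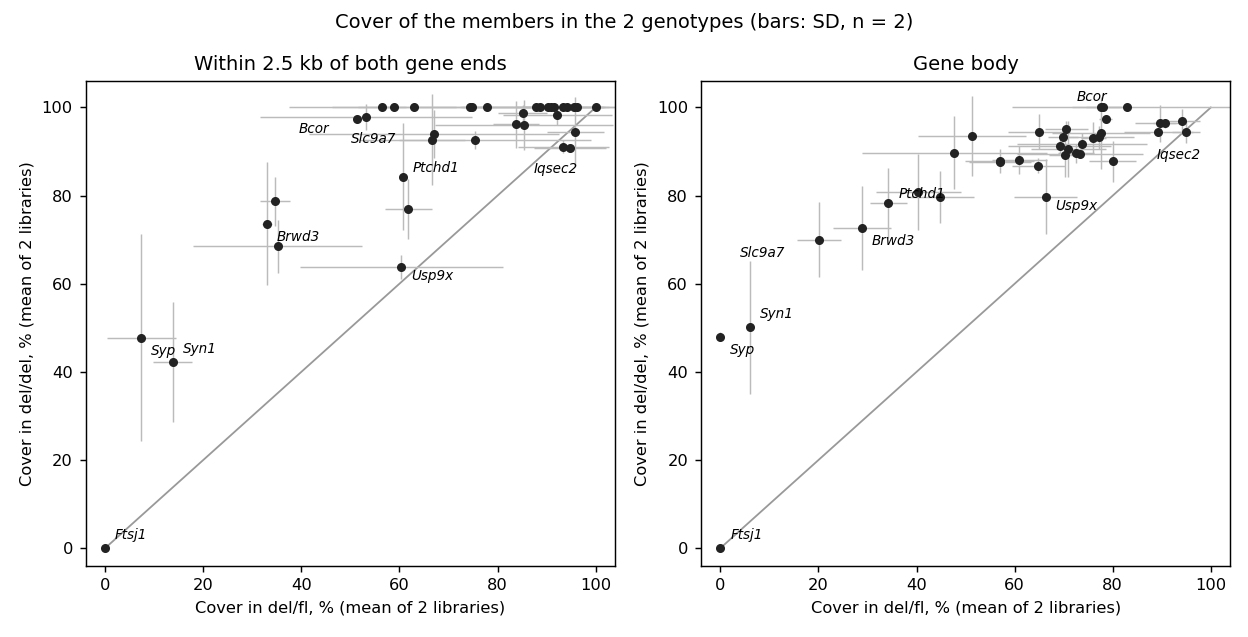
Mean cover of each member in del/fl (horizontal axis, percent) and in del/del (vertical axis, percent), at gene ends (left) and in gene bodies (right). Points are the means of 2 libraries, bars their SD, and the line marks equal cover. In bodies all points but Iqsec2 and Ftsj1 lie above the line, and the distance is largest for genes with little cover in del/fl, such as Slc9a7, Syp and Syn1.

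How far a gene differed was bounded by how much of it was bare in del/fl. The 12 members with 90% or more cover at their ends in del/fl had a median difference of 5.16 points there. Other X-linked protein-coding genes in that range had a median of 2.59 points. Full ends in both del/del libraries were seen at 16 of 37 members, and in both del/fl libraries at 1. Those are 43.2% and 2.70% of members, and the shares of the other 929 X-linked genes were 30.03% and 5.92%. Members with 25% to 50% body cover in del/fl (5 genes) had a median difference of 42.0 points, those with 50% to 75% (15 genes) one of 22.1 and those with 75% to 90% (10 genes) one of 16.8. Other X-linked protein-coding genes in the same ranges had medians of 39.9, 25.9 and 14.3 points. The groups here were made from the del/fl values that also enter the difference, so the fall from one to the next is a description only. In the lowest range, under 25%, 3 of 4 members (Slc9a7, Syn1 and Syp) differed by 44.2 to 49.97 points and Ftsj1 by 0. The median there was 46.1 points for the 4 members and 23.6 for 140 other X-linked protein-coding genes with a peak. Those 140 ranged from -17.1 to 92.6 points. Gene length, from 9370 bp for Slc6a8 to 511865 bp for Aff2, had little relation to the difference across the 37 genes (Spearman rho -0.06 in bodies and -0.10 at ends).

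Along the genes a del/del excess was present at each position from 50 kb before to 50 kb after the gene, but its size varied. For the 30 members with a known strand, the mean difference was between 16.8 and 30.5 points in the 20 equal parts of the gene, between 19.8 and 32.0 points in the 5-kb bins upstream and between 19.7 and 28.0 points downstream. In other X-linked protein-coding genes the mean difference was between 15.4 and 20.2 points over the same parts and bins. For the members its lowest value was in the first part of the gene, at the 5′ end, where del/fl cover was high (68.1%). Within 2.5 kb of the 5′ end these 30 genes were 72.7% covered in del/fl and 90.2% in del/del on average, and within 2.5 kb of the 3′ end 64.8% and 84.6%. Other X-linked genes had 54.0% and 71.2% at the 5′ end and 53.2% and 70.5% at the 3′ end. Higher cover of the 5′ than of the 3′ end was thus seen in the members, and the difference between the ends was smaller in the other X-linked genes. It was not tested.

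**Figure D4:**
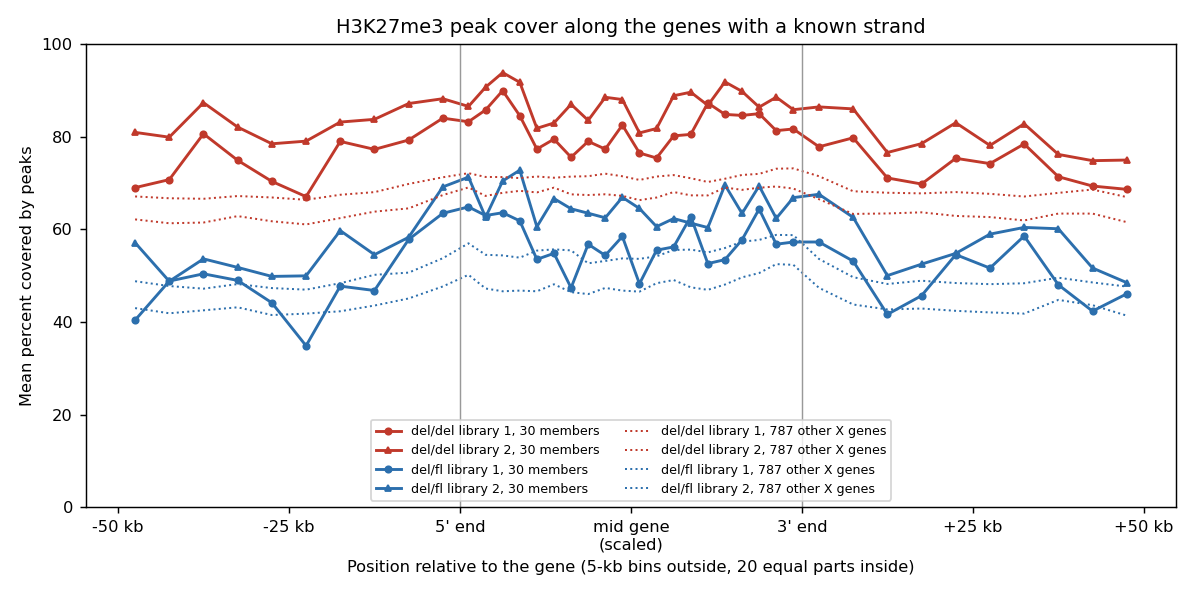
Mean percent covered by peaks along 30 members (solid lines with marks) and 787 other X-linked protein-coding genes (dotted lines), in 5-kb bins outside the gene and 20 equal parts inside, for each library. Both red del/del lines of the members lie above both blue del/fl lines at each position, and the member lines lie above the dotted lines of the same library inside the gene.

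Peaks were longer in del/del at most members and fewer at many. Peaks that touched the 37 genes or their 2.5-kb flanks numbered 419 and 284 in del/del, compared with 714 and 625 in del/fl, and their mean length was 9404 and 17043 bp against 3721 and 4876 bp. Over the whole X, peaks numbered 15835 and 13581 against 19355 and 18907. Their mean length there was 5223 and 6728 bp against 2779 and 3221 bp. The X at large thus also had fewer and longer peaks in del/del. The number of peaks was lower in both del/del than in both del/fl libraries at 23 members. It was higher at Syn1 (16 and 18 against 6 and 5) and Syp (6 and 6 against 1 and 1), and overlapped or was equal at the other 12. The same counts were not made for other genes. Peaks over 20 kb numbered 65 and 63 against 10 and 28. The longest peak of a gene was longer in both del/del than in both del/fl libraries at 30 of 37 members. Of other X-linked protein-coding genes with a peak the share was 82.8%, so the members' share was near that of the X. The longest peak was shorter in both del/del libraries at 0 members and at 0.125% of the others. The median member's longest peak measured 34612 and 49558 bp in del/del against 13141 and 16516 bp in del/fl. The medians for 801 other X-linked genes with a peak were 22428 and 31791 bp against 8101 and 10744 bp. Single peaks spanned the whole gene in both del/del libraries at Nlgn3, Med12 and Slc6a8, and in 1 of them at Ube2a and Ap1s2, and at no member in del/fl. The longest, 212123 bp in del/del library 2, held Med12 and Nlgn3 together and was 75672 bp long in del/del library 1. In del/fl the longest peaks at Nlgn3 were 8148 and 37533 bp. Acsl4 had the largest ratio of mean lengths, 54063 and 25884 bp against 3712 and 6167 bp. Besides Ftsj1, the libraries of the genotypes overlapped at Usp9x, Iqsec2, Syp, Nexmif, Nhs and Ube2a. At Usp9x the longest peaks were 11546 and 18592 against 17986 and 10574 bp.

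**Figure D5:**
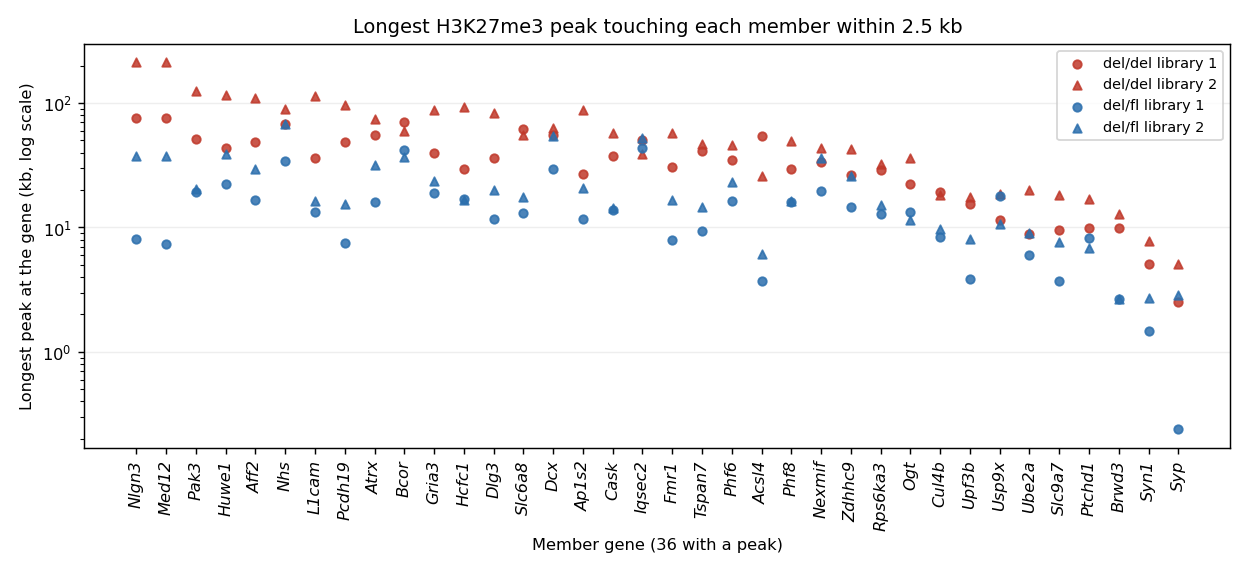
Longest peak that touches each of the 36 members with a peak, or its 2.5-kb flanks, in kb on a log scale. Red marks are del/del and blue marks del/fl libraries. Med12 and Nlgn3 share the longest peak, and at most genes both red marks lie above both blue marks, with Usp9x and Iqsec2 among the exceptions.

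The height of the peaks changed less than their length. The median fold enrichment over local background, as the authors' caller gave it, was 3.72 and 3.58 for the peaks at members in del/del, compared with 3.49 and 3.35 in del/fl. All X peaks had medians of 3.53 and 3.27 against 3.42 and 3.26. Strict peaks, of a −log10 q of at least 5, were rare: 14 and 9 peaks in del/del, compared with 7 and 6 in del/fl touched a member. They lay at 9 and 6 members in del/del against at 5 and 4 in del/fl. Over the whole X, the del/del libraries held 452 and 217 strict peaks, while the del/fl libraries held 127 and 97. More strict peaks in del/del were thus a trait of the X at large and not particular to the members. Nhs had strict peaks over 55.7% and 49.8% of the gene and its flanks in del/del against over 1.19% and 0% in del/fl. At Dcx a strict peak covered 62.0% in del/del library 1 and 0% elsewhere, so at this threshold the del/del libraries disagreed. Phf6 had 49.4% and 10.3% in del/del against 0% in both del/fl libraries.

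The other X-linked intellectual disability genes, a list of 62, were also more covered in del/del. The del/del libraries lay above the del/fl libraries, without overlap, in 43 of the 62 bodies and at 33 of the 62 ends, with 0 and 1 in the opposite direction. These are 69.4% and 53.2% of the list, beside 57.4% and 57.1% of all 929 other X-linked protein-coding genes, and 69.7% and 66.7% of those tested. Nothing particular to the list is read from these shares. Their mean body cover was 73.6% and 77.6% in del/del, compared with 55.9% and 61.3% in del/fl. limma called 0 in either window at an adjusted p of 0.05, with 34 bodies and 18 ends higher at an unadjusted p under 0.05, a p and direction found for 43.9% and 35.6% of other X-linked genes tested. Usp27x, a deubiquitinase, had the largest end difference, with 81.0% and 89.5% cover in del/del, compared with 24.8% and 26.8% in del/fl. Rbm10, a splicing regulator, followed with 46.5% and 73.8% against 0% and 7.60%. Ndp, which encodes the secreted ligand norrin, had 96.3% and 100% against 55.0% and 54.7%. Porcn, the acyltransferase of Wnt ligands, was the gene that separated downward, with 0% against 6.30% and 6.19% (limma adjusted p = 0.275). Atp6ap2 and Frmpd4, with differences of -3.45 and -2.77 points, overlapped between genotypes. Of the list, 6 bodies held no peak in any library: Kdm5c, Kdm6a, Ddx3x, Eif2s3x, Pqbp1 and Porcn, named here after their values were seen. The first 4 of them are known to escape X inactivation in mouse, and a link to escape was not tested. Of all 929 other X-linked protein-coding genes, 164 bodies held no peak in any library, so such bodies were not particular to the list.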

How the data were processed

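H3K27me3 was measured in 4 libraries, 2 of del/del and 2 of del/fl cells, while 4 whole-cell extracts served the authors as peak-calling controls. The submitters' processing notes name bcl2fastq, Bowtie 0.12.9 and the mm10 build. Per the file headers, each library was called by MACS2 2.1.0.20140616 on its own, in broad mode, with random down-sampling of the larger data set, a q-value threshold of 0.05 and 1 tag kept per position. The pileup signal, fold enrichment ratio, −log10 p-value and −log10 q-value of each peak are the authors' deposited values. They were used to filter, rank or describe peaks. Fold enrichment and −log10 q were also set side by side between libraries, without a test or a correction for depth. No depth-normalized coverage was used here, so cover is a yes or no per base and is capped at 100%.

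Genes and promoter sequences came from RefSeq tables of GRCm38.p6, and all 37 symbols matched. Percent cover was computed with numpy 2.4.6 and pandas 2.3.3 (Python 3.11.15). Genes with a peak in any library were compared with limma 3.58.1 (R 4.3.3; trend, robust, Benjamini-Hochberg over all genes). Interval code and limma were tested on simulated data. Strand, from the promoter table, was known for 30 members. Values in each library were given by rule for the 10 largest and 5 smallest end differences, the 5 largest body differences, Fmr1, Dcx, L1cam, Atrx, Syn1, Syp, any gene past an adjusted p of 0.05 and genes without peaks in a genotype, and any other member could be named too. Of the 62 other genes the 3 largest and 3 most negative end differences were named. The members, lists and tests were chosen with earlier results of these data known. Alternatives are given in the closing section. The longest-peak and promoter counts and their alternatives were added after the data were seen. Libraries sharing a number are not stated to share a line, so tests were unpaired. No 2 lists held an identical interval.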

Additional observations from a re-analysis of the deposited data

How the results depend on the processing

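The direction of the mean member difference held in all alternatives run. In bodies it was 4.35 points with peaks of −log10 q of at least 5, 14.2 with peaks merged over gaps of up to 3 kb and 29.95 after division by each library's autosomal cover. At ends it was 4.73, 9.08 and 25.7 points. Leaving out each library gave 19.05 to 27.5 in bodies and 15.4 to 21.9 at ends. Separated bodies numbered 4 with strict and 20 with merged peaks, and 34 to 35 without single libraries. Separated ends numbered 2 with strict peaks, 8 with merged peaks and 13 of 30 at the 5′ end alone, and 23 to 30 without single libraries. Separation of other genes was not counted under these alternatives. limma's count of 0 members at ends became 1 with strict peaks (Ogt, lower), 5 after division by autosomal cover, 1 with 1-kb and 3 with 5-kb windows and 7 with X-linked genes fitted alone. It ranged from 0 to 13 without single libraries: 13 when either del/fl library was left out and 2 when the first del/del library was. In bodies it became 1 with strict peaks (Nhs, higher), 1 with merged peaks and 1 without trend and robust fitting (Syp both times), and 0 to 6 without single libraries. Apart from fits with a library left out, the end counts are 10%, 13.9%, 2.78%, 8.33% and 19.4% of members tested, in the order given. The same fits called 25.5%, 15.3%, 0.917%, 8.26% and 8.3% of other X-linked genes, and 5.14%, 2.43%, 0.308%, 0.795% and 8.25% of all genes fitted. These shares, and those for bodies below, join calls in both directions. With strict peaks at ends, 49 of 192 other X-linked genes were called higher and 0 lower, so none went the way of Ogt. Of all 2160 genes in that fit, 64 were called higher and 47 lower. Body counts are 6.67%, 2.78% and 2.78% of members. Of other X-linked genes it was 23.3%, 1.83% and 0.523%, and of all genes 4.34%, 0.503% and 0.0964%. With the replicate number as a block limma called 0 members in both windows. Deviations of same-numbered libraries had a correlation of 0.10 over genes, and no call changed. Longest peaks were longer in both del/del libraries at 4 members with strict peaks and at 30 to 35 without single libraries. Promoter windows so covered numbered 0 with strict peaks and 3 to 5 without single libraries. Longest peaks and promoters of other genes were not counted under these alternatives either. Unfiltered tables could not be fitted, as most genes have no variance. The cause of these changes was not tested.

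Members changed sign in 26 combinations of gene, window and alternative. At ends these were Gria3 and Dcx without del/fl replicate 2 (-2.28 and -1.64; ranges over left-out libraries -2.28 to 23.5 and -1.64 to 14.1), Cask (-1.63), Ogt (-50) and Nhs (44.5) with strict peaks, and L1cam (-2.95) and Usp9x (-18.99) in 1-kb windows. Leaving out single libraries, Usp9x ranged from -11.2 (without del/fl replicate 1) to 18.1. Iqsec2 was 6.19 after division by autosomal cover, 3.90 with 5-kb windows and -8.86 to 4.25 without single libraries (highest without del/fl replicate 2). Pak3 was 4.87 and 3.34 with those first 2 settings, 8.23 at the 5′ end alone, and -6.88 to 4.11 without single libraries (above 0 without the first library of either genotype, 2.73 for del/fl). Nhs was 3.96 after division, 1.99 with 5-kb windows and -9.28 to 1.11 without single libraries (highest without del/fl replicate 2). In bodies they were Cask (-0.049), Ogt (-14.7), Usp9x (-0.16) and Slc9a7 (-0.22) with strict peaks, and Iqsec2 at 7.60 after division, and -2.66 to 1.45 without single libraries (1.14 when the second del/del library was left out).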
